A study of Mus musculus with 29 samples.

Results

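The genes described here are the receptor Cxcr2, its ligands Cxcl1, Cxcl2, Cxcl3, Cxcl5 and Ppbp, and the platelet chemokine Pf4, 7 of the 19938 genes with a probe set of their own on the array. Several short probes for the same transcript form a probe set, and each of these genes had exactly 1 that was annotated to it alone (10523151 for Cxcl1, 10523156 for Cxcl2, 10523138 for Cxcl3, 10523120 for Cxcl5, 10523128 for Ppbp, 10523134 for Pf4 and 10347291 for Cxcr2). Colon RNA of 29 mice was hybridized to Affymetrix Mouse Gene 1.0 ST arrays, 1 array per mouse, to compare acute with chronic relapsing colitis and with a longer recovery. All mice were female C57BL6J animals. The labels give an age of 6 weeks, which by the study's methods was that at the start, and mice of all groups had the same age when killed. Dextran sodium sulphate (DSS), a polymer that injures the colonic epithelium, was given in the drinking water. Acute colitis (4 arrays used here) was sampled after 7 days of DSS with no recovery. A cycle was 7 days of DSS and 2 weeks of normal water, and mice were sampled after 1, 2 or 3 cycles (5 arrays each). The recovery group (5 arrays) had 2 cycles and 3 additional weeks of normal water, and the control group (5 arrays) had normal water only. By the study's methods the DSS concentration was higher in repeat cycles than in the initial one. Groups with more exposures therefore also had the higher concentration, and the effects of number and concentration cannot be told apart. The tissue was a piece of the most infiltrated colon, so each value averages all the cell types of that piece, and fewer cells of a type and less RNA per cell cannot be told apart.

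Cxcr2 is a G protein-coupled receptor that is abundant on neutrophils and draws them from the blood along a gradient of its ligands. Cxcl1, Cxcl2, Cxcl3 and Cxcl5 are such ligands, made by epithelium, stroma and myeloid cells after IL-1, TNF, IL-17 or bacterial products activate NF-kB. Ppbp encodes platelet basic protein, which proteases trim to a CXCR2 ligand (CXCL7, or NAP-2), and Pf4 encodes platelet factor 4, which is stored in the same platelet granules but is not a classical CXCR2 ligand.

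The 6 chemokine genes lie in 1 cluster on mouse chromosome 5, in the order Cxcl5, Ppbp, Pf4, Cxcl3, Cxcl15, Cxcl1 and Cxcl2, while Cxcr2 lies on chromosome 1. Cxcl15 encodes a mouse chemokine of lung epithelium and was only a neighbour here. RefSeq promoter sequences (GRCm38.p6, plus strand) matched 6 of the 7 genes, all but Cxcl5. The last 120 bases before the transcription start are shown for the inflammatory ligands that matched and for both platelet chemokines. Capitals mark GGGAATTTCCC, the longest run shared by the windows of Cxcl1, Cxcl2 and Cxcl3, which has the form of an NF-kB site. Letters were searched on both strands of the 250 bases before each start.
Cxcl1 (chr5:90891125-90891244): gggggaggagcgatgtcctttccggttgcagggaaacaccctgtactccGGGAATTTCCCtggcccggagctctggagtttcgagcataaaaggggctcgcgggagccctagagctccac
Cxcl2 (chr5:90903779-90903898): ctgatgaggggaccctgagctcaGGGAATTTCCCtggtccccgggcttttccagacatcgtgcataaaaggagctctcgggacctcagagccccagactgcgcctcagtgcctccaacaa
Cxcl3 (chr5:90785981-90786100): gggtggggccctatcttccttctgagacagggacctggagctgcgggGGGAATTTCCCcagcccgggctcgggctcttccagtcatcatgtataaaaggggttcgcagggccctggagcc
Ppbp (chr5:90768398-90768517): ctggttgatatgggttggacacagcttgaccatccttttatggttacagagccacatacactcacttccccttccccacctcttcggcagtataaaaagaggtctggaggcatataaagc
Pf4 (chr5:90772315-90772434): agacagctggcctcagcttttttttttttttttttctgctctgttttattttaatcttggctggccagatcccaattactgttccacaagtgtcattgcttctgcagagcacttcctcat
The run began 71 bases before the start of Cxcl1, 97 before Cxcl2 and 73 before Cxcl3. It was not found in the window of Ppbp, Pf4, Cxcr2 or Cxcl15, and 14 of 32851 mouse promoters (0.0426%) held it, these 3 included. The letters AGATAA, of the GATA type, were in none of the 6 windows (9.99% of all promoters), and TATAAA was in those of Cxcl3 and Ppbp (12.4%). These matches are a description of the letters and were not tested as sites, and the run was picked because these 3 promoters share it.

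The arrays were comparable in their overall level, with medians of 6.02 to 6.14 on the log2 scale. The epithelial marker Epcam lay between 10.26 and 10.81 in all 29 arrays. The mean of 11 colon epithelium genes, of which 3 were called lower in acute colitis against control, was 10.47 to 11.36 in acute colitis and 10.68 (G3) to 11.44 in the groups after cycles and recovery, against 11.27 to 11.42 in control. All 6 smooth muscle genes measured were called lower in acute colitis (median log2 difference -1.79), with a mean of 9.42 to 10.50, against 11.30 to 11.72 in control. Markers of squamous epithelium, a lining that colon mucosa lacks, stood apart in 5 arrays (recovery M1, M3, N2 and N3, and 3 cycles G3), whose mean over the list of 17 genes was 7.17 to 9.09, against 5.28 to 5.62 in the others. A separate split used the probe set with the widest gap between neighbouring arrays, among gaps with at least 8 arrays on each side. It put 2 acute colitis arrays, all 1 cycle and control arrays and 2 of the 2 cycles arrays on one side, and the others on the other. Differences were fitted with limma over all 35511 probe sets, and a gene was called higher or lower at a Benjamini-Hochberg adjusted p under 0.05 and a fold above 2. Every comparison with control used the same 5 control arrays, so the comparisons are not independent of each other.

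In acute colitis, 2 ligands and the receptor rose above control. Cxcl5 rose 8.32-fold, Cxcl2 6.76-fold and Cxcr2 5.14-fold, so that 3 of the 7 genes were called higher, where 1.38% of all probe sets were. The median log2 fold change of the 7 genes was 0.92, against 0.04 over all probe sets. The control means of these 3 genes (4.67 for Cxcl5, 4.15 for Cxcl2 and 3.84 for Cxcr2) were below the median of every array, and no measure of background was used here, so these folds may be lower bounds only. Cxcl1 passed the adjusted p in the same direction at a fold under 2 (11.4% of probe sets did so at any fold), and Pf4 passed it in the opposite direction (11.6%). After 1, 2 and 3 cycles 0 of the 7 genes were called against control by limma, and 1, 2 and 2 of them had an unadjusted p under 0.05.

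**Figure D1:**
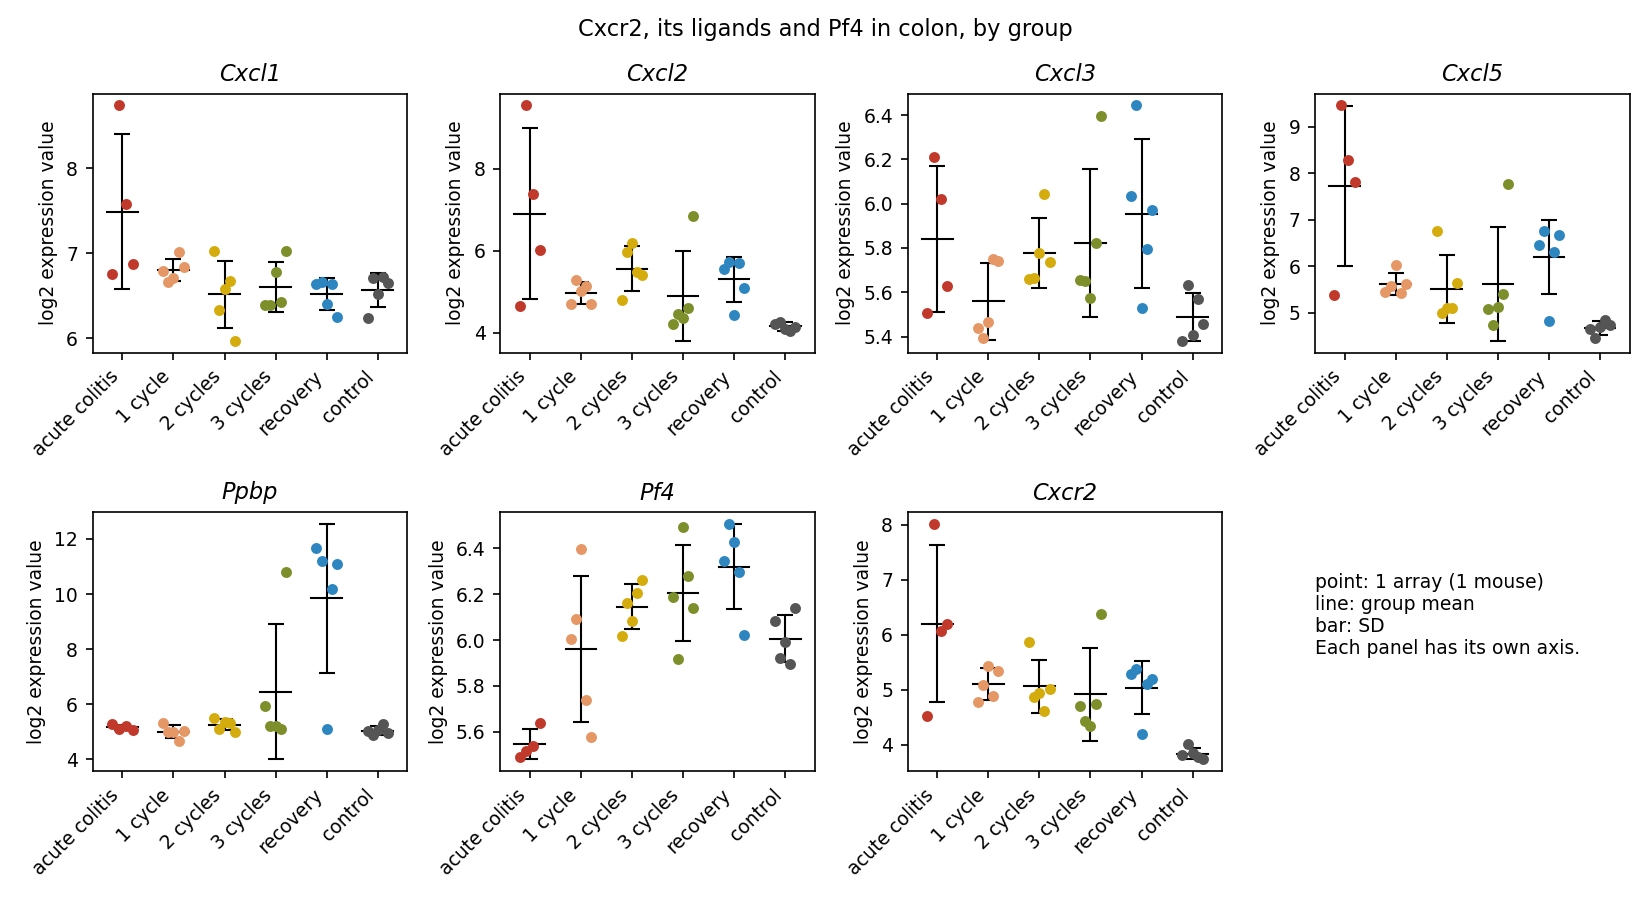
Log2 expression values of the 7 genes, 1 point per array, by group, with the group mean (line) and SD (bar); each panel has its own axis. Cxcr2 lies above every control array in all DSS groups, Cxcl2 and Cxcl5 peak in acute colitis with a wide spread, and Ppbp is above 10 in 4 recovery arrays and 1 array of 3 cycles.

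Cxcl5 encodes LIX, a neutrophil attractant of epithelial and stromal cells. In acute colitis it had log2 values of 5.37, 9.46, 8.27 and 7.80, against 4.64, 4.45, 4.69, 4.85 and 4.73 in control mice. All 4 acute colitis arrays lay above every control array, but array B2 (5.37) was close to them and lower than the other acute arrays by over 2 log2 units. The difference was 3.06 (log2, SE 0.58, limma adjusted p = 0.000325), and leaving out 1 acute array at a time gave 2.48 (without B3) to 3.84 (without B2).

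After the cycles, Cxcl5 was lower and still mostly above control. It was 5.45, 5.58, 6.02, 5.43 and 5.61 after 1 cycle, and 6.76, 5.0, 5.10, 5.10 and 5.63 after 2 cycles. After 3 cycles it was 5.09, 4.73, 5.13, 5.40 and, in array G3, 7.76. Recovery gave 6.45, 6.75, 4.82, 6.31 and 6.67, so that 4 arrays were above 6 and array M5 was within the range of control. Of the 24 DSS arrays, 22 exceeded the highest control array. None of these groups was called: by the fit of all groups, the log2 differences from control were 0.95 after 1 cycle (adjusted p = 0.374), 0.85 after 2 cycles (0.442), 0.95 after 3 cycles (0.239) and 1.53 after recovery (SE 0.55, adjusted p = 0.0672). For 3 cycles the difference was 0.41 without array G3. For recovery the adjusted p was under 0.05 with only the groups compared (0.00944), and without acute array B2 (0.0231), acute array B3 (0.043), G3 (0.0339) or M5 (difference 1.87, 0.0283), and the difference was 0.15 without the 5 arrays with squamous markers (0.975).

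Cxcl2 encodes MIP-2, a chemokine of macrophages and neutrophils themselves. Its log2 values in acute colitis were 4.66, 9.55, 7.39 and 6.03, against 4.22, 4.27, 4.09, 4.03 and 4.14 in control mice. This was the widest spread of the 7 genes in that group, a mean of 6.91 ± 2.09 against 4.15 ± 0.10 (SD, n = 4 and 5), with no overlap. The difference was 2.76 (SE 0.60, limma adjusted p = 0.00112), and it was 1.88 without array B3 (adjusted p = 0.00653).

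Cxcl2 after 1 cycle was 4.69, 5.27, 5.03, 5.14 and 4.71, and after 2 cycles it was 4.79, 5.98, 6.19, 5.47 and 5.40. Both groups lay wholly above control. After 3 cycles it was 4.21, 4.45, 4.36, 4.61 and, in G3, 6.84, and the lowest of these fell among the control values. Recovery gave 5.56, 5.73, 4.43, 5.70 and 5.09. By the fit of all groups, none of the 4 differences was called, at 0.82, 1.42, 0.75 and 1.15 on the log2 scale for 1, 2 and 3 cycles and recovery (adjusted p = 0.485, 0.151, 0.377 and 0.182). Without acute array B3 the 2 cycles difference passed (1.42, adjusted p = 0.0441), and without G3 the 3 cycles difference was 0.26. Fitted with only the groups compared, 2 cycles and recovery passed (adjusted p = 0.00237 and 0.0069). Without the 5 arrays with squamous markers the recovery difference was 0.28, from array M5 alone.

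Cxcl1 encodes KC, the mouse counterpart of human GRO-alpha. It was 6.76, 8.74, 7.59 and 6.87 in acute colitis, against 6.25, 6.71, 6.52, 6.72 and 6.65 in control mice, so the high values came from B3 and B4. The log2 difference was 0.92 (SE 0.26, limma adjusted p = 0.01), a 1.89-fold change and so short of a call. It was 0.50 without B3 (adjusted p = 0.066), and its adjusted p was 0.108 with only the groups compared. It met both thresholds without B2 (1.16), without C3 (1.13) or with the widest-gap split as a covariate (1.11, adjusted p = 0.00678). The remaining groups lay at 5.97 to 7.03 with means of 6.81, 6.52, 6.60 and 6.52 for 1, 2 and 3 cycles and recovery, against 6.57 in control, all within 0.24 of control.

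Cxcl3 is a close paralog of Cxcl1 and Cxcl2, and was called in no group. It was 5.51, 6.21, 6.02 and 5.63 in acute colitis and 6.03, 6.44, 5.53, 5.79 and 5.97 in recovery, against 5.38, 5.63, 5.40, 5.57 and 5.46 in control. Recovery was its highest group by mean (5.96 ± 0.34, against 5.49 ± 0.11 in control, SD, n = 5 each). The log2 difference of 0.47 passed the adjusted p alone (limma adjusted p = 0.0467; 6.05% of probe sets did so at any fold). It no longer did so without any 1 of the recovery arrays M1 (0.105), M3 (0.155), N2 (0.0525) and N3 (0.0739), the control arrays A1 (0.106), A5 (0.0959), L1 (0.0636) and L2 (0.078), or the cycle arrays D4, D5, E2, E4, G2, J1, J5 and K1 (0.0507 to 0.0537). It was also lost with only the groups compared (0.0502) and with the widest-gap split as a covariate (difference 0.38, 0.593), and without the 5 arrays with squamous markers the difference was 0.04 (0.973). The 15 arrays of 1, 2 and 3 cycles ranged from 5.39 to 6.40, the highest being G3. How far the probes of these paralogs bind each other's transcripts was not tested.

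Cxcr2 was the only one of the 7 genes whose 24 DSS arrays all lay above the highest control array, a pattern that 1.33% of probe sets had. Its log2 values were 4.51, 8.02, 6.07 and 6.19 in acute colitis, against 3.81, 4.01, 3.85, 3.78 and 3.74 in control mice. The acute difference was 2.36 (SE 0.44, limma adjusted p = 0.000245), and leaving out 1 acute array gave 1.76 (without B3) to 2.92 (without B2).

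The later groups sat between. Cxcr2 was 4.77, 5.09, 5.43, 4.88 and 5.34 after 1 cycle, and 5.87, 4.87, 4.93, 4.61 and 5.01 after 2 cycles. After 3 cycles it was 4.69, 4.42, 4.33, 4.74 and, in G3, 6.38, and recovery gave 5.29, 5.38, 4.20, 5.11 and 5.19. The lowest DSS array was recovery M5 (4.20), and the highest control array was 4.01. On the log2 scale the differences from control were 1.27 after 1 cycle, 1.22 after 2 cycles, 1.08 after 3 cycles and 1.20 after recovery, each more than 2-fold, with adjusted p of 0.0648, 0.0855, 0.0705 and 0.0569. These fell just short of the threshold, and the call depended on single arrays. Without B2 all 4 passed (0.0218, 0.0304, 0.0297 and 0.0217), as they did without B3 (0.0168, 0.0242, 0.0238 and 0.0173). Without G3, 1 and 2 cycles and recovery passed (0.036, 0.0495 and 0.0332) while the 3 cycles difference was 0.71 (0.248), and without M5 recovery passed (1.41, 0.032). Fitted with only the groups compared, all 4 passed (0.0002, 0.00278, 0.0403 and 0.00323). Without the 5 arrays with squamous markers, 1 cycle passed (0.0492) and the recovery difference was 0.36, from array M5 alone.

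**Figure D2:**
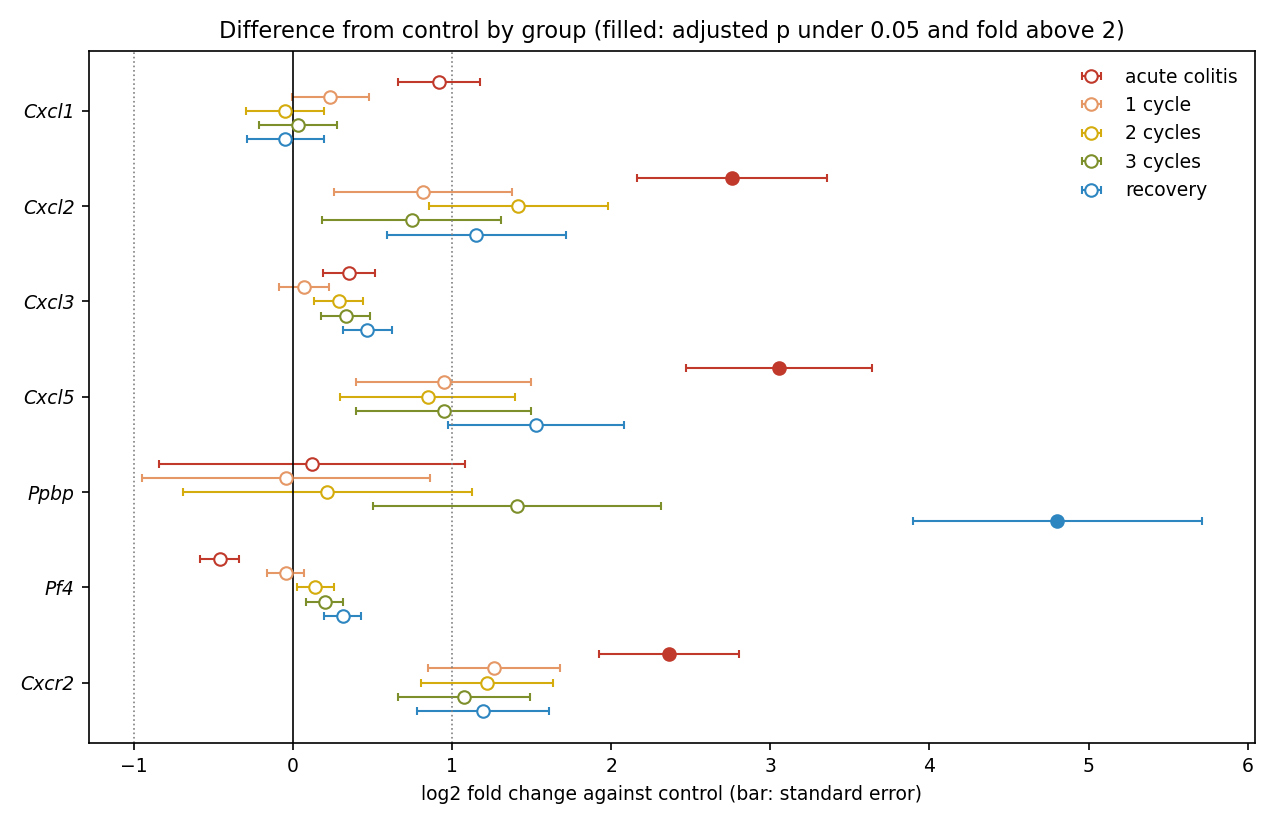
Log2 fold change of each gene against control (x axis) for acute colitis, 1, 2 and 3 cycles and recovery, with the standard error from limma as the bar; filled points passed both thresholds. Only Cxcl2, Cxcl5 and Cxcr2 in acute colitis and Ppbp in recovery are filled, and Cxcr2 lies to the right of the 2-fold line in all 5 groups.

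Compared with the mean of 1, 2 and 3 cycles, acute colitis had more of the same ligands and receptor. Cxcl5 was 4.41-fold higher (log2 2.14, SE 0.49, limma adjusted p = 0.00377), Cxcl2 3.40-fold (1.76, SE 0.50, 0.0189) and Cxcr2 2.26-fold (1.17, SE 0.37, 0.0351), so 3 of the 7 genes were called higher in acute colitis, where 0.282% of probe sets were. Cxcl1 passed the adjusted p alone (0.85, 0.00924; 6.6% of probe sets at any fold), and so did Pf4 in the other direction (-0.56, 0.000544; 5.66%). These differences rested in part on single acute arrays. Without B3 Cxcl2 was 0.88 (0.215), Cxcr2 0.57 (0.335) and Cxcl1 0.43 (0.112). Without B4 Cxcl2 was 1.60 (0.0793) and Cxcr2 1.22 (0.0723), and without C3 Cxcr2 was 1.18 (0.0898). With only the groups compared Cxcl2 (0.0654) and Cxcr2 (0.0957) were not called, and with array weights Cxcl2 (0.086), Cxcr2 (0.0721) and Cxcl1 (0.0547) did not pass. Cxcl5 stayed called when any array was left out, with its lowest value, 1.56, without B3.

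The acute arrays differed among themselves in the same way for several genes. Array B2 was the lowest and B3 the highest of the group for Cxcl1, Cxcl2, Cxcl3, Cxcl5 and Cxcr2. Neutrophil genes followed this order at its ends, with a mean over the list of 14 measured genes of 6.04 in B2, 6.91 in B4, 7.24 in C3 and 8.46 in B3, against 5.54 to 5.67 in control. In acute colitis 10 of these 14 genes were called higher than control and 0 lower, where 1.38% of all probe sets were called higher. They were led by Retnlg (log2 difference 2.60), the calprotectin subunits S100a9 (2.49) and S100a8 (2.21) and the neutrophil collagenase Mmp8 (2.12). After 1, 2 and 3 cycles 1, 2 and 1 of the 14 were called, with Cd177, a neutrophil surface protein, in each (1.83, 1.99 and 2.10). After recovery 3 were called (Ltf 3.43, Cd177 1.58 and S100a9 1.47). Of all probe sets, 0.87%, 0.907% and 1.02% were called higher after 1, 2 and 3 cycles and 1.08% after recovery. In recovery, S100a9 was 6.55 to 7.27 in M1, M3, N2 and N3, which carried squamous markers, and 5.41 in M5, which did not. Which cells made these transcripts in recovery was not tested. Against the mean of the cycles, acute colitis had 8 of the 14 called higher and 1 lower (0.282% of all probe sets were called higher). The order was not particular to neutrophil genes. A list of 10 measured monocyte and macrophage genes had means of 6.55 in B2, 7.21 in B4, 7.39 in C3 and 7.94 in B3, against 6.20 to 6.56 in control. Of these 10 genes, 6 were called higher than control in acute colitis. The mean of the upstream cytokine and regulator list described below was also lowest in B2 (6.40) and highest in B3 (8.14). The part of neutrophil or macrophage number in the Cxcr2 and ligand values was not tested.

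Over the 29 arrays, Cxcr2 and its ligand Cxcl5 were the pair of the 7 genes with the highest correlation (Pearson r = 0.94, and 0.95 for deviations from the group means). Cxcl2 followed Cxcr2 with r = 0.88 (0.81 for deviations), and Cxcl1 with r = 0.73. By the same measure over all genes, the 3 genes most like Cxcr2 were S100a9, the G-CSF receptor Csf3r and Tnfaip2 (r = 0.96, 0.96 and 0.95), and within groups they were Trem1, S100a9 and S100a8. Cxcl5 was most like Tnfaip2 (0.94), S100a9 (0.93) and Csf3r (0.92), and Cxcl2 was most like Il1a (0.93), Acod1 (0.92) and Tnfaip2 (0.92). Cxcl1 was most like Ccl7, a monocyte attractant (0.91), Il11 (0.89) and Tarm1 (0.89). Cxcl3 was most like Pdcd1 (0.80), Adam8 (0.80) and Il1f6 (0.79). These values describe arrays that share groups and tissue make-up, and B3, B2, G3 and M5 set much of their range.

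**Figure D3:**
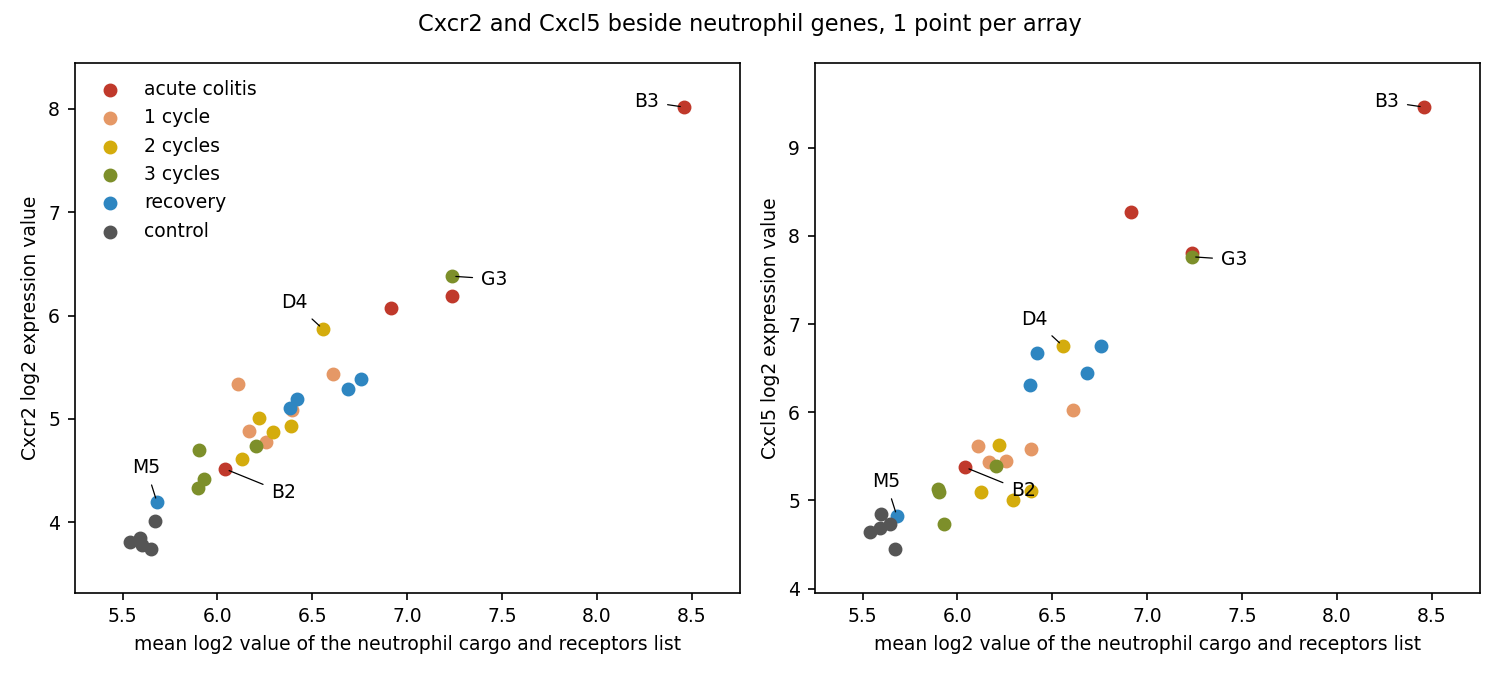
Log2 values of Cxcr2 (left) and Cxcl5 (right) against the mean log2 value of 14 neutrophil genes, 1 point per array, coloured by group. Control arrays sit at the lower left, acute array B3 at the upper right, and the arrays B2, D4, G3 and M5, which stand apart from their groups, lie near the same line.

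Upstream of the ligands, 15 cytokines, cytokine receptors and NF-kB regulators were measured. In acute colitis 4 of the 15, all cytokines, were called higher against control and 11 were not called (1.38% of all probe sets were called higher). The 4 were Il1b (log2 difference 3.63), Il1a (3.40), Il6 (2.28) and Tnf (1.82). The median was 0.55 over the 15 genes against 0.04 over all probe sets. After 1 and 2 cycles only Il1b was called (2.33 and 2.25), after 3 cycles 0 of the 15 were by limma (11 had an unadjusted p under 0.05), and after recovery Il1a and Il1b were (1.77 and 1.45). Il1a, Il1b, Il6 and Tnf were also called higher in acute colitis than in the mean of the cycles. Of all probe sets, 0.87%, 0.907% and 1.02% were called higher after 1, 2 and 3 cycles and 1.08% after recovery. Il22 and Il1r1 had no probe set of their own and were not measured.

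Of 9 CXC chemokines outside the CXCR2 group, 4 were called higher than control in acute colitis, 2, 2 and 3 after 1, 2 and 3 cycles and 2 after recovery. Of all probe sets, 1.38% were called higher in acute colitis, 0.87%, 0.907% and 1.02% after 1, 2 and 3 cycles and 1.08% after recovery. Cxcl9 and Cxcl10 were also called higher in acute colitis than in the mean of the cycles (log2 differences 1.67 and 2.46), and lower in recovery than in acute colitis. Cxcl9, an interferon-induced ligand of CXCR3, was called higher than control in all 5 DSS groups, with log2 differences of 5.16 in acute colitis, 4.07, 3.03 and 3.39 after 1, 2 and 3 cycles and 2.88 after recovery. The B cell attractant Cxcl13 was also called in all 5 (1.12, 1.89, 1.77, 1.10 and 1.07). Of the other receptors, Cxcr4 was called in the 4 later groups (1.28, 1.42, 1.20 and 1.30), and 0 of 8 were called in acute colitis (3 had an unadjusted p under 0.05). Cxcr1, the receptor most like Cxcr2, was called in none of the 5 groups.

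In recovery 1 of the 7 genes was called against control, Ppbp, which had the highest fold of the 7 in any group, while 5 had an unadjusted p under 0.05. Its log2 values were 11.67, 11.20, 5.12, 10.18 and 11.09 in recovery, against 5.04, 4.90, 5.06, 5.30 and 4.95 in control mice. Of the 5 recovery arrays, 4 were above 10 and M5 was at the control level, so the group mean of 9.85 ± 2.70 (SD, n = 5) describes neither. The log2 difference was 4.80 (SE 0.91, limma adjusted p = 0.00133), a 28.0-fold change, and 1 of the 7 genes was called, where 1.08% of probe sets were called higher. Leaving out 1 recovery array gave 4.35 (without M1) to 5.99 (without M5), all called.

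Outside recovery Ppbp stayed near the control level, except in array G3. It was 5.27, 5.10, 5.22 and 5.08 in acute colitis, 5.32, 4.99, 5.01, 4.67 and 5.03 after 1 cycle, and 5.51, 5.12, 5.34, 5.33 and 5.01 after 2 cycles. After 3 cycles it was 5.94, 5.20, 5.23, 5.11 and, in G3, 10.79. Thus 5 of the 29 arrays were above 10 and the other 24 were between 4.67 and 5.94. Ppbp was not called in any of these 4 groups against control (0 of the 7 genes were called in the groups after cycles, where 0.87%, 0.907% and 1.02% of probe sets were called higher after 1, 2 and 3 cycles), and the 3 cycles difference of 1.41 was 0.32 without G3. By SD over all arrays Ppbp ranked 3 among the 35511 probe sets, Cxcl5 ranked 100 and Cxcl2 112.

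Recovery also exceeded its nearest comparison groups in Ppbp. Against 2 cycles, which had the same DSS exposure, the log2 difference was 4.59 (SE 0.91, limma adjusted p = 0.0243), and Ppbp was the 1 gene called (0.152% of probe sets higher). That call was lost without any 1 of the 2 cycles arrays (D4, D5, E2, E3 or E4, adjusted p 0.0542 to 0.0742) and without M1 (0.115), M3 (0.079) or N3 (0.127), with differences of 4.13 to 4.65. It was also lost with only the groups compared (0.248) and with the widest-gap split as a covariate (4.61, 0.0654), and without the 5 arrays with squamous markers the difference was -0.15 (0.963). Against acute colitis it was 4.68 (SE 0.96, 0.00176), again the 1 gene called higher (0.848% of probe sets). With only the groups compared that call was lost (0.0537), and without the squamous arrays the difference was -0.050 (0.953). In that comparison Pf4 passed the adjusted p alone (0.77, 0.000145; 5.64% of probe sets at any fold), as did Cxcl1 in the other direction (-0.97, 0.014; 6.06%). The Cxcl1 result did not pass without B3 (-0.55, 0.074), with the covariate (-0.77, 0.0822), with array weights (-0.80, 0.054), with only the groups compared (0.169) or without the squamous arrays (-1.08, 0.234). Without acute array B2, Cxcl1 (-1.21), Cxcl2 (-2.35), Cxcl5 (-2.31) and Cxcr2 (-1.73) were called lower in recovery than in acute colitis.

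The 5 arrays with Ppbp above 10 were the 5 with squamous markers. Keratin 5 (Krt5), a keratin of basal squamous cells, had a median of 11.80 in recovery with a low value of 5.52, which was M5, and was 10.91 in G3, against 5.48 to 5.91 in control. In recovery 13 of the 17 squamous genes were called higher, where 1.08% of all probe sets were. Among them were Krt5 (log2 difference 4.62), Krt6a (4.39), Krt4 (4.31) and Krt13 (4.05), with a list median of 2.89 against -0.00 over all probe sets. Without these 5 arrays the recovery group held M5 alone, and the Ppbp difference from control was 0.07 (adjusted p = 0.96), an estimate that assumes that this lone array varies like the other groups. With the split of the arrays by the widest-gap probe set as a covariate, the difference was 4.87 and not called (adjusted p = 0.103), all recovery arrays being on one side of it and all control arrays on the other. Whether the Ppbp transcript came from the squamous epithelium, from cells beside it or from elsewhere was not tested.

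No other platelet gene was called where Ppbp rose. Of 11 measured platelet and megakaryocyte genes, 0 were called in recovery by limma (1 had an unadjusted p under 0.05), and their mean was 6.15 to 6.39 in recovery arrays, against 5.93 to 6.21 in control. The integrin Itga2b, which defines the lineage, was 5.64 to 6.05 in recovery, against 5.60 to 5.76 in control, and the 2 groups overlapped. In acute colitis, where Ppbp stayed at control level, 1 of the 11 was called, Plek (1.82), which other blood cells also express. Of all probe sets, 1.38% were called higher in acute colitis and 1.08% in recovery. The 3 red cell genes measured gave means of 5.20 to 5.51 in recovery and 5.29 to 5.41 in control, with 0 called and 0 with an unadjusted p under 0.05.

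**Figure D4:**
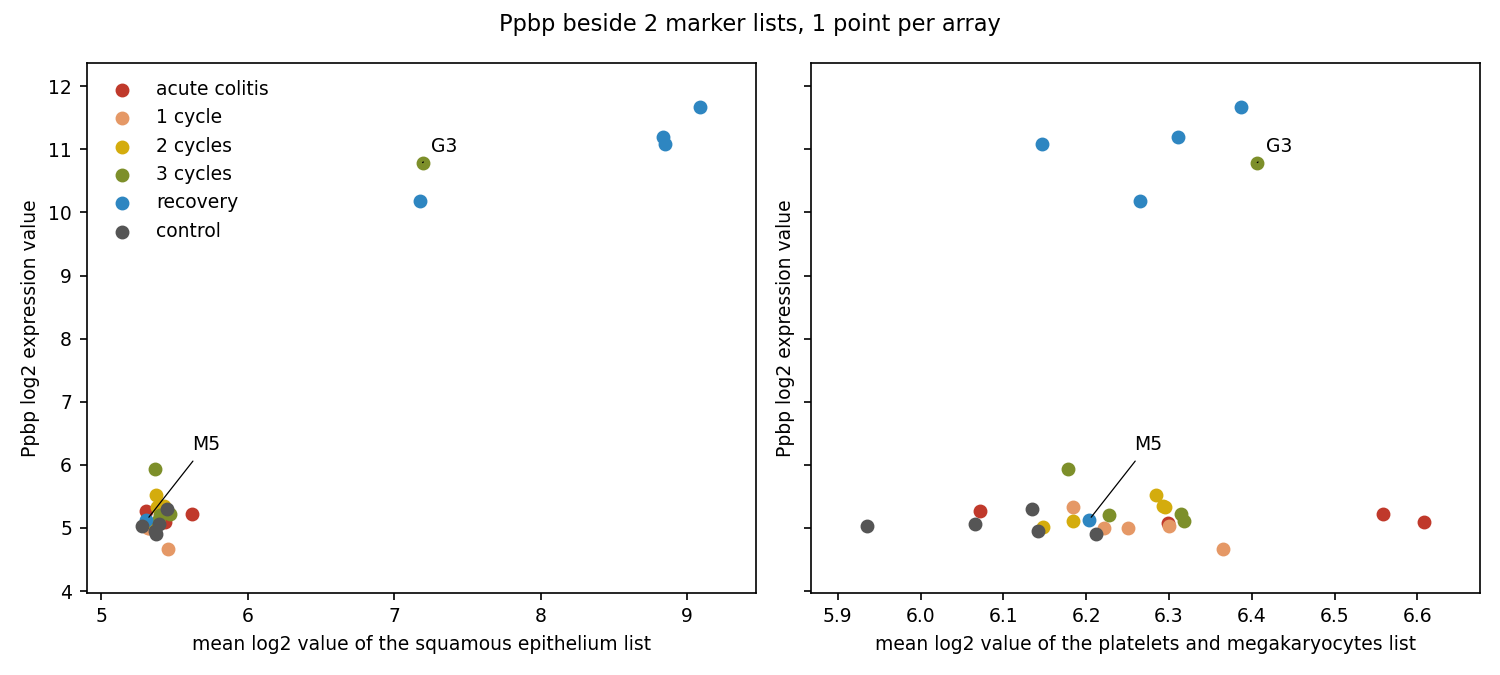
Log2 value of Ppbp against the mean log2 value of 17 squamous genes (left) and of 11 platelet and megakaryocyte genes (right), 1 point per array. The 5 arrays with Ppbp above 10 are the 5 with a squamous mean above 7, and M5 lies with the low arrays. On the right the high arrays lie between 6.15 (N3) and 6.41 (G3), and the others between 5.93 and 6.61.

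By likeness over the 29 arrays, the genes nearest to Ppbp were Krt5 (Pearson r = 0.99), Krt13 (0.98) and Tmprss11g (0.98), and within groups Krt5 (0.98), Krt13 (0.96) and Dapl1 (0.96). Its correlation with Pf4 was 0.35, and -0.15 for deviations from the group means. These r values rest on the 5 high arrays against the other 24.

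Pf4, the neighbour of Ppbp on the chromosome, was lowest in acute colitis. It was 5.49, 5.51, 5.54 and 5.64 there, against 6.08, 5.92, 5.99, 5.90 and 6.14 in control mice. All 4 acute arrays lay below the lowest control array, which was so for 8.28% of probe sets. The log2 difference was -0.46 (SE 0.12, limma adjusted p = 0.00704), a 0.727-fold change that did not meet the fold threshold, and leaving out 1 array at a time kept it between -0.49 and -0.43. All 6 smooth muscle genes and 3 of 11 colon epithelium genes were called lower in the same arrays, and their part in the Pf4 values was not tested. By the adjusted p alone, at any fold, 11.6% of all probe sets were lower in acute colitis. After 1 cycle Pf4 was 6.00, 6.09, 6.40, 5.74 and 5.58, a wider spread than in any other group. It was 6.02, 6.16, 6.08, 6.20 and 6.26 after 2 cycles and 6.19, 5.92, 6.49, 6.28 and 6.14 after 3 cycles. Recovery gave 6.34, 6.51, 6.43, 6.30 and 6.02, and here M5 (6.43) was not apart from the rest. The recovery difference from control was 0.31 (adjusted p = 0.0758). The genes most like Pf4 over the arrays were Gpm6a, a membrane glycoprotein of neurons (r = 0.86), Dchs1 (0.85) and the macrophage mannose receptor Mrc1 (0.84).

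In the order of the cluster, the genes with called differences were not all neighbours. Cxcl5 and Cxcl2, at the opposite ends, had the acute differences that were called (3.06 and 2.76), and Ppbp, between Cxcl5 and Pf4, had the one that was called in recovery (4.80). Cxcl15, between Cxcl3 and Cxcl1, was called in no comparison.

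**Figure D5:**
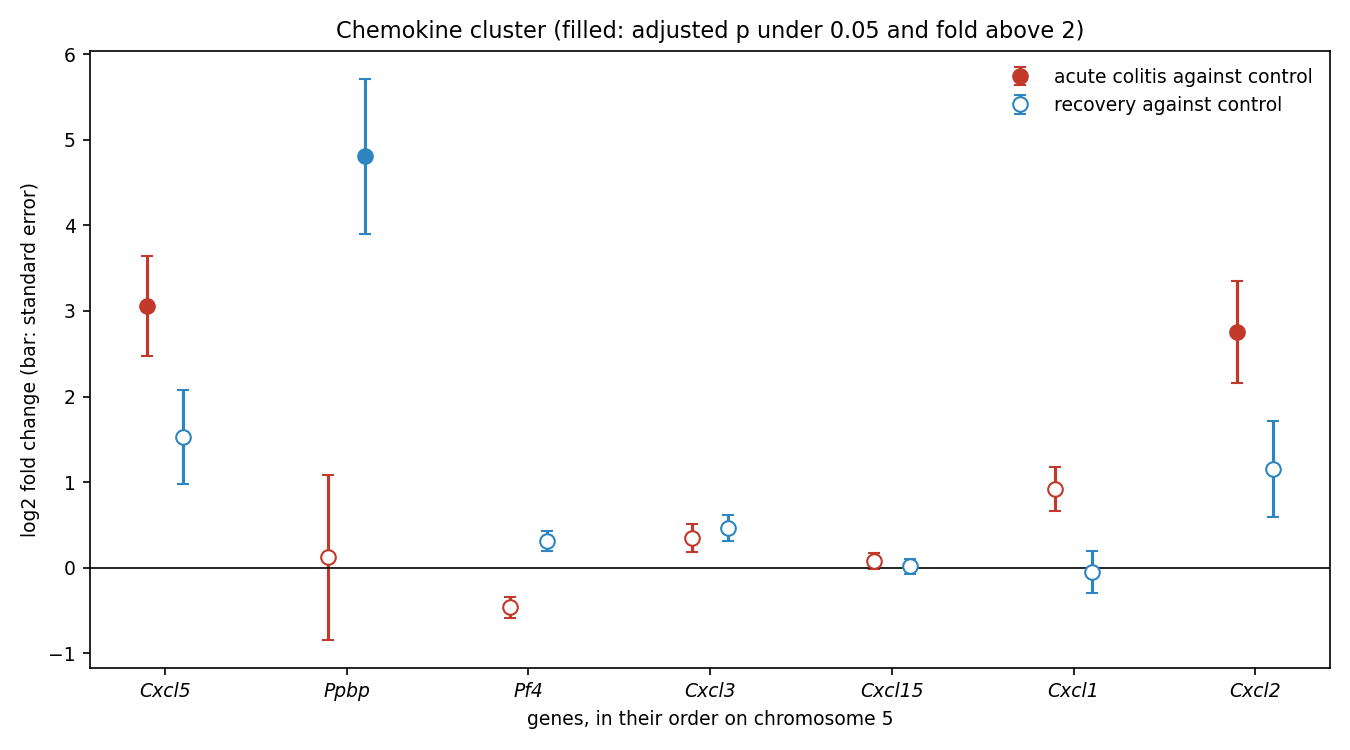
Log2 fold change against control in acute colitis and in recovery (y axis, bar: standard error) for the 6 chemokine genes and Cxcl15, in their order on chromosome 5; filled points passed both thresholds. Cxcl5 and Cxcl2 are filled for acute colitis at the 2 ends, and Ppbp is filled for recovery beside Pf4, which is at 0.31.

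By group mean the order of levels differed between the genes. For Cxcl1, Cxcl2, Cxcl5 and Cxcr2 acute colitis came first, for Cxcl3, Ppbp and Pf4 recovery did. Control was lowest for Cxcl2, Cxcl3, Cxcl5 and Cxcr2. Between neighbouring groups in each order the values overlapped, except that for Cxcl5 all 2 cycles arrays, the group next above control, lay above the highest control array (5.0 or more against 4.85 or less), and for Cxcr2 all 3 cycles arrays did (4.33 or more against 4.01 or less).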

How the data were processed

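RNA of snap frozen colon was measured on 29 arrays, 1 per mouse, with biotin-labelled DNA, and groups were taken from the labels. The authors normalized the arrays with RMA (background correction, quantile normalization and summary of probes) in R 2.12.2, and the deposited log2 values run from 1.93 to 13.97. No signal of single probes or background was used here, so the number of arrays limits the precision. Genes were named by the platform annotation and 0 value columns were left out.

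One model with 1 mean per group was fitted to all 35511 probe sets with limma 3.58.1 in R 4.3.3 (lmFit and eBayes), after a test on simulated data made from these arrays. Benjamini-Hochberg adjustment took in every probe set, and a call needed an adjusted p under 0.05 and a fold above 2. All 7 genes are described. Called genes of the marker lists are named for some comparisons only, up to 4 per list and comparison by size of change. For each of the 7 genes the 3 of highest Pearson r over the arrays are named. Figures were drawn with matplotlib 3.10.9. The 7 genes and the lists were chosen with earlier results of these data known.

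Alternatives were a fit of only the groups compared, the title's letter as a random block (consensus correlation -0.07), array weights (0.32 to 1.84), a prior fitted with trend and robustly, dropping dim probe sets (17756 kept) or those without 1 gene symbol (21789 kept), quantile normalization once more, centring of arrays, the 2 sets of arrays as a covariate, and each array left out. Leaving out the 5 arrays with squamous markers was added after the data were seen. Letters and numbers of the titles pair no mice across groups.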

Additional observations from a re-analysis of the deposited data

Results flagged for a closer look

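In 7 of the 42 combinations of a gene and a group, 1 array lay far from the rest of its group by Dixon's criterion, which chance alone meets in about 1 of 20 groups. These came from 2 arrays. In G3 (3 cycles) the highest values were 6.84 for Cxcl2, 7.76 for Cxcl5, 10.79 for Ppbp and 6.38 for Cxcr2. In M5 (recovery) the lowest values were 4.82 for Cxcl5, 5.12 for Ppbp and 4.20 for Cxcr2. G3 carried squamous markers at a list mean of 7.19 and neutrophil genes at 7.23, against 5.37 to 5.47 and 5.90 to 6.21 in the other 3 cycles arrays. M5 had a squamous mean of 5.31 and a neutrophil mean of 5.68, against 7.17 to 9.09 and 6.38 to 6.75 in the other recovery arrays. Which cells made the transcripts of the neutrophil list in G3 and in the recovery arrays was not tested. Acute array B2 was low for Cxcl2, Cxcl5 and Cxcr2 but did not meet the criterion with 4 arrays.

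Differences between DSS groups that were given above were flagged too (limma). Control cancels in these contrasts, so they are the same tests and not further results. Their limits hold here as well: without B3 Cxcl2 and Cxcr2 were not called, and without the arrays with squamous markers the Ppbp difference reversed. The rise over control was larger in acute colitis than in the mean of the cycles by 1.76 on the log2 scale for Cxcl2, 2.14 for Cxcl5 and 1.17 for Cxcr2. For Ppbp it was larger in recovery than in acute colitis by 4.68.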

How the results depend on the processing

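Over 1261 recomputed fold changes of 33 gene and comparison results, 1186 kept direction and call, 22 (5 results) lost a call, 50 (13 results) gained one and 3 reversed. Many settings left out an array of a group outside the comparison, which cannot change the fold change, so the 1186 are no measure of robustness. They also include uncalled results that stayed uncalled but lost their adjusted p, such as Cxcl1 in acute colitis against control without B3 (limma adjusted p = 0.066). The 3 reversals came without the 5 arrays with squamous markers, in differences not called there: recovery against 2 cycles for Cxcl5 (-0.69) and Ppbp (-0.15), and recovery against acute colitis for Ppbp (-0.050).

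The number of the 7 genes called, 3 in acute colitis against control, was 0 with dim probe sets left out, since only 2 of the 7 were then tested, and 3 to 4 with 1 array left out. For 1 cycle (0 called) it was 1 with only the groups compared, the letter block, array weights, only probe sets with 1 symbol, or without the squamous arrays, and 0 to 1 with 1 array left out. For 2 cycles (0 called) it was 2 with only the groups compared or array weights, and 0 to 2 with 1 array left out. For 3 cycles (0 called) it was 1 with only the groups compared or the letter block, and 0 to 1 with 1 array left out. For recovery against control (1 called) it was 4 with only the groups compared, 3 with the letter block, array weights or only probe sets with 1 symbol, 0 with the covariate or without the squamous arrays, and 1 to 3 with 1 array left out. For acute colitis against the mean of the cycles (3 called) it was 1 with only the groups compared or array weights, 0 without dim probe sets, and 1 to 4 with 1 array left out. For recovery against 2 cycles (1 called) it was 0 with only the groups compared, the covariate or without the squamous arrays, and 0 to 1 with 1 array left out. For recovery against acute colitis (1 called) it was 0 with only the groups compared or without the squamous arrays, 2 with the letter block, and 1 to 5 with 1 array left out. Apart from the dim filter and the arrays left out, the cause of these changes was not tested.

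Over all probe sets, 382 were called higher after recovery against control, but 71 with the covariate and 3 without the squamous arrays, and 363 after 3 cycles, but 110 with the covariate and 241 with 1-symbol probe sets only. The 54 called higher in recovery against 2 cycles became 0 with only the groups compared or without the squamous arrays, 18 without dim probe sets and 11 with the covariate. The 100 of acute colitis against the cycles became 65 without dim probe sets, and the 301 of recovery against acute colitis became 197 with only the groups compared. A mean of several probe sets could not be formed, as each of the 7 genes has 1. No paired analysis was possible because each mouse belongs to 1 group and title codes are unique.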
